A study of Mus musculus with 22 samples.

Results

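Tanycyte nuclei were the 438 nuclei that the authors' deposited annotation names as tanycytes, among 24965 nuclei of the hypothalamus of 10 male ob/ob mice, and they made up 1.75% of all nuclei. All mice lacked leptin through the ob/ob genotype and were 11 weeks old by the labels. Day 1 nuclei, taken 24 h after the injection, came from 3 mice given 3 µg of fibroblast growth factor 1 (FGF1) into a cerebral ventricle (187 tanycyte nuclei) and from 3 vehicle mice given PBS by the same route and pair-fed to the FGF1 mice (87). Day 5 nuclei came from 2 FGF1 mice (141) and 2 pair-fed vehicle mice (23). Each mouse was 1 library and 1 replicate, a group is only 2 or 3 mice, and mice keep the replicate numbers of the labels. RNA was counted as unique molecular identifiers (UMIs), the molecules of a gene captured in a nucleus, and levels per mouse are CPM, the UMI counts of its tanycyte nuclei together scaled to a common library size.

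Tanycytes are elongated glial cells of the floor and lower walls of the third ventricle whose processes reach into the median eminence and the hypothalamic nuclei around the arcuate nucleus. They line the cerebrospinal fluid, sense glucose, handle thyroid hormone and carry features of radial glia. FGF1 binds FGF receptors, and signals through the MAPK pathway, which induces early transcription factors and its own inhibitors of the Sprouty and Spred families.

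The label was checked against 10 tanycyte markers, of which 9 had their highest median level over mice in tanycyte nuclei, and the exception was Adm, which was highest in endothelial nuclei. Rax, a homeobox factor of tanycytes, had few UMIs in nuclei: it was at 17.6, 0 and 0 CPM in Day 1 FGF1 replicates 1, 2 and 3, at 28.8, 64.6 and 12.9 CPM in vehicle replicates 1, 2 and 3, at 29.1 and 10.6 CPM in Day 5 FGF1 replicates 37 and 45, and at 0 and 57.7 CPM in vehicle replicates 28 and 38. Col23a1, a membrane collagen that marks tanycytes, was seen in every mouse, from 259 to 1630 CPM. Its level in tanycyte nuclei was above that of ependymal, astrocyte, oligodendrocyte and neuron nuclei in all 10 mice. In all comparisons between cell types, neuron nuclei are those the annotation leaves unmapped, so neurons of named types were not compared. Markers of neurons summed to 5614 to 10070 CPM in tanycyte nuclei.

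Several library features moved with the groups and stand beside the results. Day 1 FGF1 tanycyte nuclei were shallower, with a median of 2298 to 2846 UMIs per mouse against 3383.5 to 3799 in Day 1 vehicle mice. Ribosomal protein genes held a median of 2.61 to 6.25% of their UMIs, against 1.65 to 1.92%. FGF1 replicate 1 stood apart with 119 tanycyte nuclei, of which 86 lay above the 5% limit for mitochondrial or ribosomal UMIs. Nuclei with 3 or more UMIs of 10 ependymal markers numbered 4 of 187 in Day 1 FGF1 mice and 49 of 87 in Day 1 vehicle mice. Of all nuclei, 638 carried a barcode that another library also held, 19 of them tanycyte nuclei, and no barcode was shared between tanycyte nuclei of 2 libraries. UMIs summed over tanycyte nuclei ran from 32905 to 398650 per mouse.

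The share of tanycyte nuclei showed no difference beyond the spread between mice on either day. On Day 1 it was 2.11% ± 0.365 (SD, n = 3) of nuclei after FGF1 and 1.99% ± 0.531 (n = 3) after vehicle, with an exact two-sided permutation p of 0.9, where 0.1 is the smallest that 3 against 3 mice allow. Of non-neuronal nuclei, 11.6% and 9.19% were tanycytes (exact permutation p = 0.3). On Day 5 the share was 1.53% and 1.86% in the FGF1 mice and 0.283% and 2.37% in the vehicle mice. Vehicle replicate 28 thus gave 9 tanycyte nuclei of 3182, with a 95% Clopper-Pearson interval of 0.129 to 0.536% that covers counting error only, against an interval of 1.30 to 3.94% in vehicle replicate 38. The Day 5 exact permutation p was 1, and 2 against 2 mice cannot bring it below 0.05.

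On Day 1, tanycyte nuclei of FGF1 mice carried more RNA of Hmga2, Tm4sf1 and Timp1 and of 13 of 23 tested cytoskeletal genes, and less of 26 of 34 tested motile cilium genes and of the imprinted gene Nnat. Of 3534 genes tested, 323 were called at a false discovery rate (FDR) below 0.05, which is 9.14% of the genes, with 5.38% (190 genes) higher and 3.76% (133 genes) lower, and the median log2 fold change (FGF1 over vehicle) of all tested genes was 0.03. The levels of FGF1 and vehicle mice did not overlap for 321 of the 323, against 27.0% of all tested genes. The authors' batch number paired each FGF1 mouse with a vehicle mouse, though not by replicate number. Within these batches, 188 of the 190 higher genes were higher in all 3 and all 133 lower genes were lower in all 3. Groups that do not overlap give this for any pairing of the mice, so it adds no support to the calls. With the batch as a term, 119 genes were called. The number called fell to 72 without vehicle replicate 1, to 192 without FGF1 replicate 2 and to 204 without vehicle replicate 2, and was 286 without FGF1 replicate 1. The number was 42 of 1322 tested without nuclei that held 3 or more ependymal marker UMIs. Of the called genes chosen for naming, 17 of the 36 that could be tested in that subset lost the call, among them Tshr and Vim, and 32 of 91 lost the call with the batch term and 49 of 89 without vehicle replicate 1. Of those named below, Osmr, Timp3, Itgav, Spred2, Cdk4, Wnt7b, Frzb, Thra, Glul, Gabbr1, Col11a1, Sparcl1, Eno1, Txn1, Prdx6, Tsc22d3, Clu and Serpina3n lost it in both. Tshr, Sdc4, Spry2, Jun, Adam12, Socs3, Sprr1a, Vim, Nes, Anxa2, Smad3, Ltbp1, Pygb, Dnaic1 and Dnah6 lost it without vehicle replicate 1 and were called with the batch term.

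Hmga2, Tm4sf1 and Sprr1a were among the largest increases. Hmga2 (chr10:120361275-120476469, GRCm38, minus strand), a chromatin architectural protein of embryonic and proliferating cells, was at 567, 717 and 368 CPM in the FGF1 mice and at 0, 0 and 12.9 CPM in the vehicle mice. All 3 FGF1 mice stood far above all vehicle mice, and the gene was called (FDR 0.000265). The vehicle mice held 1 UMI against 332, a pooled ratio of 205 with a 95% counting interval of 36.6 to 8130. Other annotated genes overlap Hmga2, and the sources used here do not give whether counting used strand, so their reads cannot be told apart from its own. Tm4sf1 (chr3:57285611-57301988), a membrane protein of migrating cells, was at 1032, 923 and 818 CPM after FGF1 and at 28.8, 35.9 and 12.9 CPM after vehicle, again without overlap (log2 fold change 5.04 ± 0.482 (SE), FDR 0.000265). Sprr1a, a cornified envelope protein that regenerating neurons also make, was at 2236, 206 and 154 CPM after FGF1 and had no UMI in any vehicle mouse. FGF1 replicate 1 supplied most of its 805 UMIs. The size of its increase therefore rests on that mouse, and no fold is given.

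Plaur, Plat, Timp1 and Timp3, which act in extracellular proteolysis or inhibit it, were each called higher. Plaur, the urokinase receptor, averaged 132 CPM ± 33.7 (SD, n = 3) after FGF1 and 2.39 ± 4.14 after vehicle. Plat, the tissue plasminogen activator, averaged 188 ± 43.6 and 30.2 ± 5.19. Both genes had every FGF1 mouse above every vehicle mouse. Timp1, a metalloproteinase inhibitor, was at 429, 232 and 356 CPM after FGF1 and at 0, 0 and 12.9 CPM after vehicle (FDR 0.000541), with 211 UMIs against 1 and a pooled ratio of 130.4 (95% counting interval 23.2 to 5176), and Timp3, a matrix-bound relative, averaged 452 ± 78.5 and 175 ± 17.7 CPM. Both Timp genes lie within synapsin genes of the opposite strand, Syn1 and Syn3.

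Other members of the injury list were called higher too. Cd44, the hyaluronan receptor, averaged 575 CPM ± 144 after FGF1 and 48.3 ± 32.4 after vehicle, and Lgals1, a galectin, averaged 595 ± 313 and 18.2 ± 15.8. Socs3 and Osmr, a feedback inhibitor and a receptor of the gp130 cytokine pathway, were called higher, Socs3 with 76 UMIs against 3 and Osmr with a log2 fold change of 2.74. Emp3 and Akr1b8, a membrane protein and an aldo-keto reductase, had no UMI in any vehicle mouse and were at least 18.5-fold and at least 16.3-fold higher, with UMIs pooled over the mice and set against 3 counts over the vehicle group. Of the 22 genes of the injury list, 14 could be tested and all 14 were called higher, beside 5.38% of all tested genes. Vehicle levels were so low that these members passed the filter through the FGF1 mice, so this count is no independent support, and the other 8 were too low to test. Together the list summed to 7329, 3923 and 3404 CPM in the FGF1 mice and to 159, 251 and 348 CPM in the vehicle mice. In ependymal nuclei of the same FGF1 and vehicle mice, Hmga2 averaged 137 and 0 CPM, and in astrocyte nuclei 45.4 and 2.00 CPM. Whether the FGF1 effect differed between cell types was also tested. Against ependymal nuclei, 11 injury genes were tested and only Tm4sf1 was called, beside 1.37% of all tested genes. Against astrocyte nuclei, 18 were tested and only Serpina3n was called, with the larger rise in astrocytes, beside 0.303% of all tested genes.

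**Figure D1:**
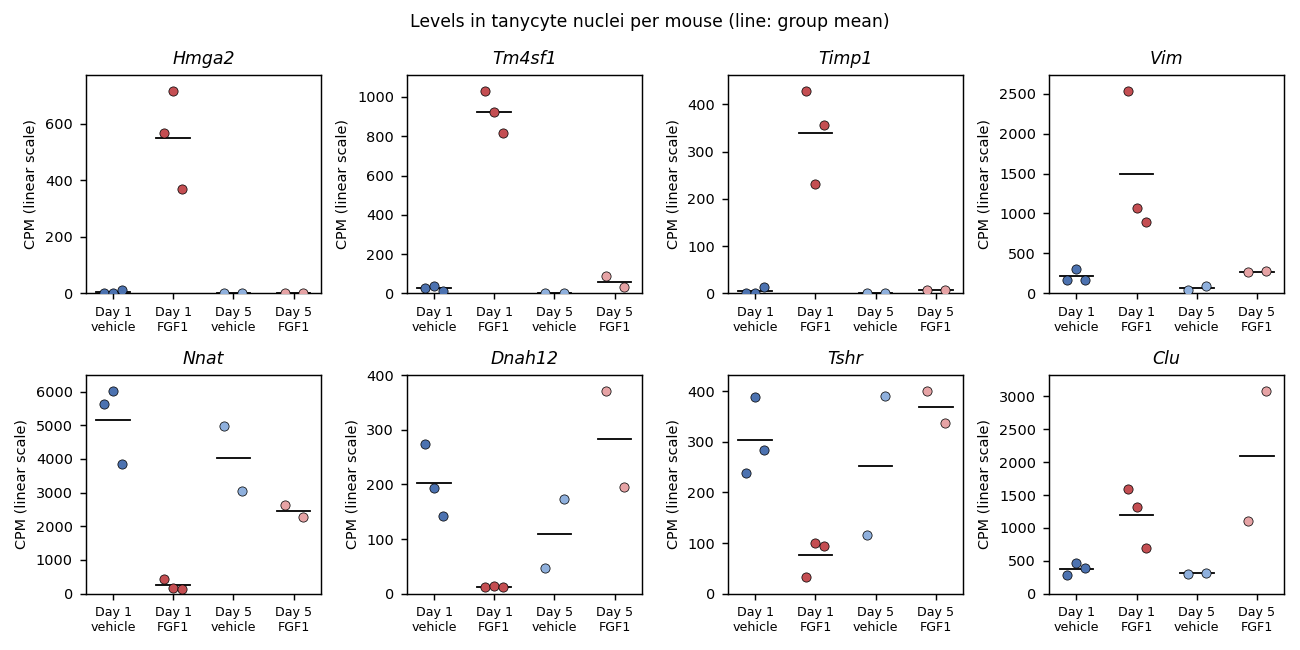
Levels of 8 genes in tanycyte nuclei, in CPM on a linear axis from 0, with 1 point per mouse and a line at the mean of each of the 4 groups. The 3 Day 1 FGF1 mice lie above all Day 1 vehicle mice for Hmga2, Tm4sf1, Timp1, Vim and Clu and below them for Nnat, Dnah12 and Tshr, while the 2 Day 5 FGF1 mice lie at 0 for Hmga2 and at 2633 and 2266 CPM for Nnat.

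Because the AP-1 subunit Jun was among the called genes, the bases just upstream of 6 of the genes that rose were read for the AP-1 motif TGANTCA, which is its own reverse complement and so is searched on both strands at once. Promoters come from RefSeq (GRCm38.p6), each is the 250 bases before the annotated start in the direction of transcription, and capitals mark a motif match. Sprr1a and Plaur hold matches, Sprr1a at 146 and 116 bases and Plaur at 69 bases before the start, and the other 4 promoters, those of Hmga2, Timp1, Akr1b8 and Emp3, hold none, of which Hmga2 and Timp1 are shown for comparison.
Sprr1a (chr3:92485882-92486131, minus strand): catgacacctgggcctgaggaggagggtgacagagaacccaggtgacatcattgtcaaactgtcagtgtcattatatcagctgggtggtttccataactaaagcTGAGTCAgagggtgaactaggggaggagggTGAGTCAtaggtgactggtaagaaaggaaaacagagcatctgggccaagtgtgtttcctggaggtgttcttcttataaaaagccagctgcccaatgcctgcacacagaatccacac
Plaur (chr7:24462233-24462482, plus strand): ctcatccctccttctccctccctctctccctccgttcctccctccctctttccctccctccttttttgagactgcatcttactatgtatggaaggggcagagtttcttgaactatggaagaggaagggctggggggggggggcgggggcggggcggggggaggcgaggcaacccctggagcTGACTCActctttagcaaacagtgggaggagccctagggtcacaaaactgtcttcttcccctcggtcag
Hmga2 (chr10:120476470-120476719, minus strand): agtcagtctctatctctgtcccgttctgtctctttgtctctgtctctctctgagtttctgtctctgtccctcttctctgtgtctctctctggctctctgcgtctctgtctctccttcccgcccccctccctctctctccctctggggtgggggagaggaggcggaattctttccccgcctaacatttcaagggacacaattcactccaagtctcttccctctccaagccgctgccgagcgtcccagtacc
Timp1 (chrX:20869916-20870165, plus strand): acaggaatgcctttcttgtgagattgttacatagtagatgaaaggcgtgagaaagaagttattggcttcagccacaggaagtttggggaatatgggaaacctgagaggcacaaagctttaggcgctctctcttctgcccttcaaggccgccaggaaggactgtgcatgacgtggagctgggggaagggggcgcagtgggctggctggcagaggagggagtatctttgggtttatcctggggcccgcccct
The motif lay in 12 of 171 promoters (7.02%) of genes higher on Day 1, in 5 of 129 (3.88%) of genes lower on Day 1, in 161 of 3611 (4.46%) of genes tested on Day 1 and in 2217 of 32851 (6.75%) of all promoters in the table, which matched 142 of the 190 higher and 99 of the 133 lower genes. A match is a run of letters in this window and not a measured binding site.

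Cytoskeletal, S100 and annexin genes formed the second group of increases. Of 23 members tested of 32, 13 were called higher and none lower, beside 5.38% and 3.76% of all tested genes. Their median log2 fold change was 1.76 against 0.03 for all genes. Members low in the vehicle mice passed the filter on low counts through the FGF1 mice, so this count and median are no independent support. Vim, the intermediate filament of tanycytes and reactive glia, was at 2536, 1069 and 890 CPM after FGF1 and at 166, 309 and 167 CPM after vehicle, without overlap (log2 fold change 2.79 ± 0.504, FDR 0.00449). Nes, the intermediate filament of neural progenitors, averaged 132 CPM ± 32.7 and 27.8 ± 7.47. Gfap, the filament of astrocytes, was at 796, 783 and 546 CPM against 64.9, 115 and 734 CPM, so vehicle replicate 3 reached the FGF1 mice and the gene was not called (FDR 0.305). S100a10 and Anxa2, partners in a membrane scaffold complex, averaged 823 CPM ± 438 against 60.8 ± 23.9 and 1097 ± 554 against 149 ± 63.9. The number of members called was 10 without the nuclei above the 5% limit, 12 without FGF1 replicate 1, 8 with the batch as a term and 4 without vehicle replicate 1. No member was called in the test of a different FGF1 effect in ependymal nuclei (25 tested, beside 1.37% of all tested genes). None was called against astrocyte nuclei either (26 tested, beside 0.303%). At such low shares the lack of calls does not show equal effects. The difference, tanycyte minus other, was positive for 10 of 25 members (median -0.38) and for 8 of 26 (median -0.68).

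Ribosomal protein genes leaned higher, with 65 of 77 tested, all 65 with a positive log2 fold change and a median of 1.33. Of these, 11 were called higher and 54 were not called. Over all tested genes, 51.3% were positive and 5.38% were called higher. Their summed level was 72426, 33191 and 25952 CPM in the FGF1 mice and 19423, 22084 and 13537 CPM in the vehicle mice. The groups did not overlap, and FGF1 replicate 1 was the highest by far. Many ribosomal protein genes have near-identical pseudogenes, so single members are uncertain, and the part of RNA quality in these values was not tested.

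Genes of FGF signalling itself divided into receptors, which were not called, and partners and inhibitors, some of which were. Fgfr1 averaged 195 CPM ± 66.5 after FGF1 and 131 ± 50.02 after vehicle, and Fgfr2 averaged 335 ± 38.2 and 424 ± 146, with overlapping mice in both. Of 8 tested members of the 19-gene FGF list, 2 were called higher: Sdc4, a heparan sulfate coreceptor, at 429, 551 and 463 CPM against 64.9, 115 and 116 CPM (log2 fold change 2.30 ± 0.392, FDR 0.00344), and Itgav, an integrin subunit, at 223, 299 and 344 CPM against 86.5, 108 and 142 CPM (1.37 ± 0.391, FDR 0.0446). Both separated the groups without overlap, Itgav by the smaller margin. Among the MAPK inhibitors, 4 of 19 were tested and 2 were called higher, Spry2 at 168, 212 and 166 CPM against 28.8, 28.7 and 64.4 CPM (2.25 ± 0.446, FDR 0.00744) and Spred2 at 1.85 ± 0.416 (FDR 0.0155). The counts of both lists stand beside 5.38% of all tested genes called higher. Spry2 was low in the vehicle mice and passed the filter on low counts through the FGF1 mice, so its count is no independent support.

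Immediate early genes were tested for 4 of 18 members, and the AP-1 subunit Jun and the zinc finger factor Egr1 were called higher, beside 5.38% of all tested genes. Both were near 0 in the vehicle mice and passed the filter through the FGF1 mice, so the count is no independent support. Jun was at 247, 73.0 and 94.9 CPM after FGF1 and at 0, 7.18 and 12.9 CPM after vehicle, and Egr1 was at 144, 193 and 71.2 CPM and at 21.6, 0 and 12.9 CPM. Neither overlapped between the groups at 24 h after the injection. Fos, the partner of Jun, was too low to test at 82.3, 59.7 and 47.4 CPM against 0, 7.18 and 12.9 CPM. Of the EGF family, Hbegf, a heparin-binding ligand of the EGF receptor, averaged 245 CPM ± 165 and 6.70 ± 6.46, and Adam12, a protease that sheds such ligands, averaged 236 ± 83.6 and 28.7 ± 31.2. Both were called higher, while the receptor Erbb4, at 689 ± 126 and 927 ± 460 CPM, was not.

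Growth and differentiation genes were called singly. Ccnd1, the G1 cyclin induced by MAPK signalling, averaged 101 CPM ± 24.6 after FGF1 and 2.39 ± 4.14 after vehicle, and its kinase Cdk4 averaged 119 ± 39.7 and 23.9 ± 29.9. Of the 24 cell cycle genes, 2 more were tested and not called and 20 were too low to test. Of the TGF-beta, BMP and Wnt genes, 13 of 37 were tested: Smad3, a TGF-beta signal transducer, Ltbp1, which tethers latent TGF-beta in the matrix, and Wnt7b rose with log2 fold changes of 2.96, 2.63 and 2.57, and Frzb, a secreted Wnt inhibitor, fell by 2.15 on the log2 scale. Trib1, a pseudokinase, and Tnfrsf12a, the receptor of the cytokine TWEAK, were called higher, with 92 UMIs against 1 and 241 against 3. Ccnd1, Trib1 and Tnfrsf12a were very low in the vehicle mice and passed the filter on low counts through the FGF1 mice. The counts of these lists are thus no independent support, and stand beside 5.38% of all tested genes called higher and 3.76% called lower.

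**Figure D2:**
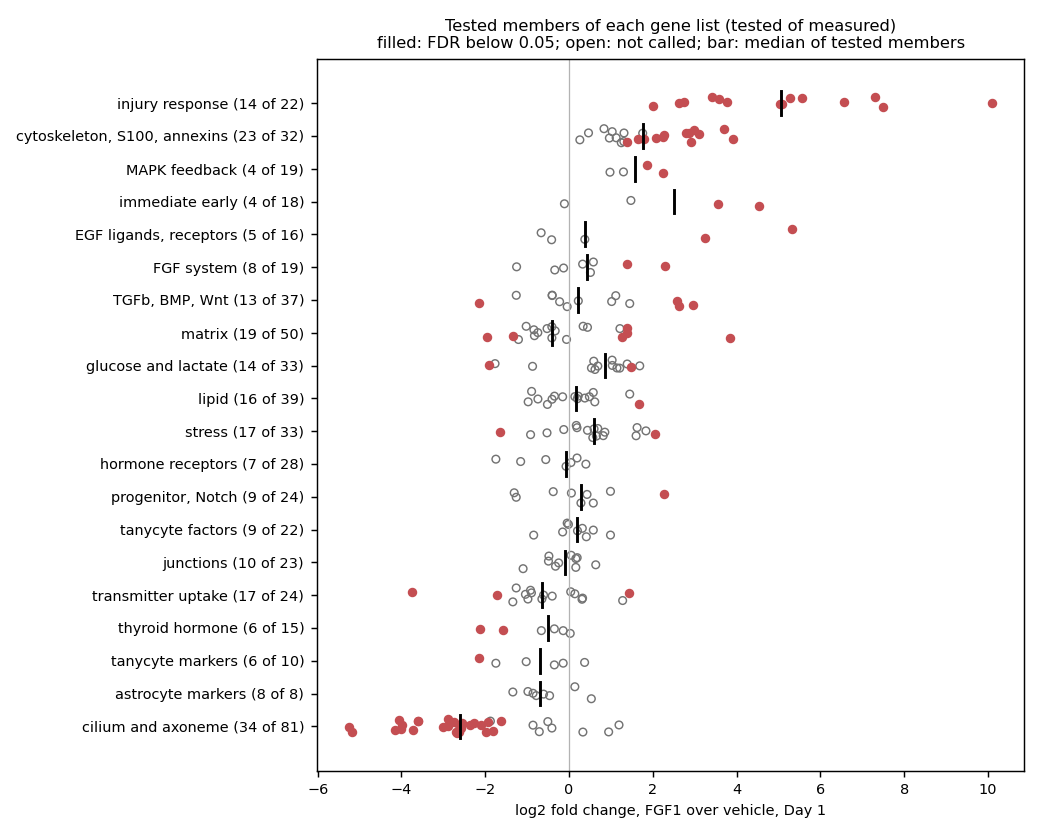
Day 1 log2 fold changes (FGF1 over vehicle, x axis) of the tested members of 20 gene lists (y axis, with the number tested of those measured), filled where the FDR was below 0.05 and open where not, with a bar at the median of the tested members. The 14 tested injury genes all lie to the right of 0, 26 of 34 tested cilium genes are filled and to the left, and no filled point lies among the astrocyte markers, junction genes, hormone receptors or tanycyte transcription factors.

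Motile cilium and axoneme genes gave the largest group of decreases, with 34 of 81 measured members tested. Of these, 26 were called lower and none higher, beside 3.76% and 5.38% of all tested genes. Their median log2 fold change was -2.61 against 0.03 for all tested genes. Members low after FGF1 passed the filter on low counts through the vehicle mice, where they were high, so this count and median are a description and no independent support. Dnah12, an axonemal dynein heavy chain, was at 11.8, 13.3 and 11.9 CPM after FGF1 and at 274, 194 and 142 CPM after vehicle, far below and without overlap (log2 fold change -4.00 ± 0.477, FDR 0.000541). Dynlrb2, a dynein light chain of the same machinery, had 2 UMIs over all FGF1 mice and 58 over the vehicle mice, at 5.88, 0 and 0 CPM against 115, 251 and 90.2 CPM. Spag16, of the axonemal central pair, averaged 72.6 CPM ± 10.7 and 441 ± 86.9. 3300002A11Rik, an antisense transcript over Foxn3, had 1 UMI in the FGF1 mice and 74 in the vehicle mice. The summed level of the list was 3315, 2848 and 2764 CPM in the FGF1 mice against 9593, 9653 and 7187 CPM in the vehicle mice.

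The ependymal markers, of which all 4 tested fell (Dnah12, Cfap126, Ccdc146 and Dnah9, which are also cilium genes), moved with this decrease. These 4 were already counted among the cilium genes, and members low after FGF1 passed the filter through the vehicle mice. The count is thus no independent support. Of all tested genes 3.76% were called lower, and 5 measured markers could not be tested. Over the whole list of 10, of which 9 had a UMI, the summed level was 113 to 142 CPM in the FGF1 mice and 811 to 990 CPM in the vehicle mice, and Foxj1, the master regulator of motile cilia, was at 2.94, 0 and 0 CPM against 14.4, 14.4 and 64.4 CPM. Ependymal nuclei, the ciliated lining cells next to tanycytes, numbered 18 to 23 per Day 1 FGF1 mouse and 13 to 18 per Day 1 vehicle mouse. Without the tanycyte nuclei that held 3 or more ependymal marker UMIs, which left 38 vehicle nuclei, the cilium list was at 2814, 2883 and 2713 CPM against 5299, 5910 and 5231 CPM, so the groups did not overlap. The nuclei were removed by markers that include 4 of the cilium genes called lower, so the change itself decided which nuclei stayed, 4 of 187 being lost after FGF1 and 49 of 87 after vehicle. In that subset 4 cilium genes could be tested and 2 were called lower. The part of ependymal RNA in the decrease was not tested. Leaving out vehicle replicate 1 gave 14 cilium genes called of 36 tested, and the batch term gave 17 of 34.

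Decreases outside the cilium list included Nnat (chr2:157560078-157562522), an imprinted membrane proteolipid of developing brain. It was at 429, 166 and 142 CPM after FGF1 and at 5633, 6014 and 3851 CPM after vehicle, with no overlap (log2 fold change -4.34 ± 0.516, FDR 0.000541). The gene lies inside Blcap, which is read from the other strand. A330033J07Rik, an antisense transcript over Id4, was at 5.88, 13.3 and 23.7 CPM against 339, 402 and 438 CPM (-5.06 ± 0.520, FDR 0.000265), and 6330403K07Rik averaged 202 CPM ± 126 against 2285 ± 1152. Without strand, reads of A330033J07Rik and Id4, and of 3300002A11Rik and Foxn3, cannot be told apart.

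Of 6 tanycyte markers tested, only Frzb was called lower, at 32.3, 26.6 and 35.6 CPM after FGF1 and at 137, 194 and 77.3 CPM after vehicle, and the median log2 fold change of the 6 was -0.69. Col23a1 was at 259, 412 and 486 CPM against 1010, 797 and 541 CPM and was not called (log2 fold change -1.02 ± 0.409, FDR 0.150), although the mice did not overlap. Gpr50, an orphan receptor of tanycytes, missed the threshold at an FDR of 0.0522. Of 22 tanycyte transcription factors, 9 were tested and none was called (2 at an unadjusted p below 0.05, and none by DESeq2), with a median log2 fold change of 0.20. Prss56, a protease of dorsal tanycytes and radial glia, could not be tested. It was at 317, 59.7 and 11.9 CPM in the FGF1 mice and had no UMI in any vehicle mouse. FGF1 replicate 1 again held most of its 118 UMIs, so no fold is given.

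Thyroid hormone genes, through which tanycytes set hormone supply to the hypothalamus, were tested for 6 of 15 members, and 2 fell, beside 3.76% of all tested genes called lower. Thra was low after FGF1 and passed the filter on low counts through the vehicle mice, so the count is no independent support. Tshr, the thyrotropin receptor, was at 32.3, 99.6 and 94.9 CPM after FGF1 and at 238, 388 and 283 CPM after vehicle, without overlap (log2 fold change -2.13 ± 0.474, FDR 0.0148). Tshr was also called with the batch as a term. It lost the call without vehicle replicate 1 and without nuclei holding the ependymal marker UMIs named above. Thra, a thyroid hormone receptor, was at 67.6, 59.7 and 83.0 CPM against 173, 222 and 219 CPM (-1.57 ± 0.387, FDR 0.0237). Thra was not called by DESeq2, nor with the batch term, and it shares its locus with Nr1d1. Crym, a binding protein of the hormone, and Thrb, a receptor, had overlapping mice, at means of 181 against 210 and 196 against 191 CPM, and Dio2, the deiodinase that activates the hormone, was too low to test at 11.8, 0 and 11.9 CPM against 50.5, 43.1 and 25.8 CPM.

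Genes that tanycytes share with astrocytes moved unevenly. None of 8 astrocyte markers was called by edgeR (4 at an unadjusted p below 0.05), 1 was by DESeq2, and their median log2 fold change was -0.70. The transmitter uptake list, which also holds enzymes and receptors, had 17 of 24 members tested. Of these, 1 was called higher and 2 lower, beside 5.38% and 3.76% of all tested genes. Etnppl, an enzyme of phosphoethanolamine breakdown, was at 8.82, 6.64 and 23.7 CPM after FGF1 and at 180, 100 and 180 CPM after vehicle (-3.74 ± 0.558, FDR 0.00168). Glul, the glutamine synthetase, averaged 122 CPM ± 69.5 against 424 ± 88.3. Both fell, and Gabbr1, a GABA-B receptor subunit, rose with a log2 fold change of 1.43, while the glutamate transporter Slc1a3 was not called at 705 ± 115 and 1700 ± 562 CPM (FDR 0.0647).

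In the matrix, metabolic and stress lists few members were called, and the shares read against 5.38% higher and 3.76% lower over all tested genes. In the matrix list, with 19 of 50 members tested, Col11a1, Itgav, Timp3 and Ncan rose and Bcan and Sparcl1 fell. The proteoglycan pair of neurocan and brevican went opposite ways: Ncan was at 173, 126 and 71.2 CPM after FGF1 against 7.21, 7.18 and 12.9 CPM, and Bcan was at 79.3, 86.3 and 59.3 CPM against 281, 323 and 283 CPM. Of 14 tested glucose and lactate genes of 33, the glycolytic enzyme Eno1 rose by 1.49 on the log2 scale and the glycogen phosphorylase Pygb fell by 1.90. Of 17 tested stress genes of 33, Txn1, a thioredoxin, rose and Prdx6, a peroxiredoxin, fell, and Tsc22d3, the 1 called gene of 6 tested glucocorticoid targets of 15, fell from 254 CPM ± 120 to 61.0 ± 8.83. Clu, an apolipoprotein of glia, was the 1 called gene of 16 tested lipid genes, at 1587, 1314 and 688 CPM against 281, 459 and 386 CPM. Tight junction genes and hormone receptors had none called of 10 and of 7 tested (1 and 2 at an unadjusted p below 0.05, and none by DESeq2). The progenitor list had Nes called higher of 9 tested of 24. Markers of oligodendrocytes summed to 249 to 325 CPM in the FGF1 mice and to 515 to 736 CPM in the vehicle mice, without overlap. Markers of neurons and oligodendrocytes had none called of 4 and of 2 tested (0 and 1 at an unadjusted p below 0.05, and none by DESeq2), and those of oligodendrocyte precursors, microglia, vessels and the pars tuberalis had at most 1 member high enough to test.

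Counted per nucleus, most Day 1 tanycyte nuclei of each FGF1 mouse held several UMIs of the injury list, while most single genes were found in fewer nuclei. The lists and genes counted were chosen with earlier results of these data known. The shares thus describe the change per nucleus and add no independent support. All 438 nuclei were thinned to 1000 UMIs to remove differences in depth. After thinning, 82.4%, 62.8% and 68.0% of tanycyte nuclei of FGF1 replicates 1, 2 and 3 held 3 or more UMIs of the injury list, against 0 of 32, 0 of 35 and 1 of 20 in the vehicle mice. The zeros allow shares of up to 9.38% and 8.57% by counting error alone. In unmapped neuron nuclei of the FGF1 mice, where these genes should be low, the share was 0.601 to 0.980%. Of the 98, 27 and 17 such nuclei of the FGF1 mice, 48, 13 and 8 also held 3 or more UMIs of the cilium list.

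Hmga2 was found in 31.9%, 37.2% and 20.0% of thinned tanycyte nuclei of the FGF1 mice, in none of the 32, 35 and 20 vehicle nuclei, which allows up to 9.38%, 8.57% and 15% of nuclei with a UMI, and in at most 0.901% of neuron nuclei of the FGF1 mice. Before thinning it was found in 48.7%, 58.1% and 48.0% of the FGF1 nuclei and in 1 of the 20 nuclei of vehicle replicate 3. Cd44 was found in 37.3% ± 2.57 of thinned nuclei after FGF1 and 5.24% ± 5.02 after vehicle, with 0.490 to 1.201% in neuron nuclei of the FGF1 mice. Tm4sf1 was found in 45.6% ± 3.31 (SD, n = 3) of nuclei after FGF1 and 2.62% ± 2.51 after vehicle, with 1.52 to 1.80% in neuron nuclei of the FGF1 mice. Vim was found in 68.2% ± 14.98 and 15.9% ± 1.10, with 2.402 to 7.35% in those neuron nuclei. Nnat was found in 18.5% ± 9.54 and 94.7% ± 4.05 of tanycyte nuclei, with 6.82 to 31.4% and 21.7 to 34.6% of neuron nuclei. Its mean share after FGF1 lay within the range of the neuron shares over the FGF1 mice, which is no comparison within each mouse. At least 3 cilium list UMIs were held by 49.9% ± 1.85 of nuclei after FGF1 and 86.8% ± 3.62 after vehicle, with 28.2 to 38.0% in neuron nuclei of the Day 1 mice. At least 1 ependymal marker UMI was held by 12.4% ± 3.39 and 57.8% ± 1.96, with 6.31 to 14.4% in neuron nuclei. The median depth before thinning was 3034.5 UMIs in tanycyte nuclei and 2549 in the neuron nuclei drawn.

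**Figure D3:**
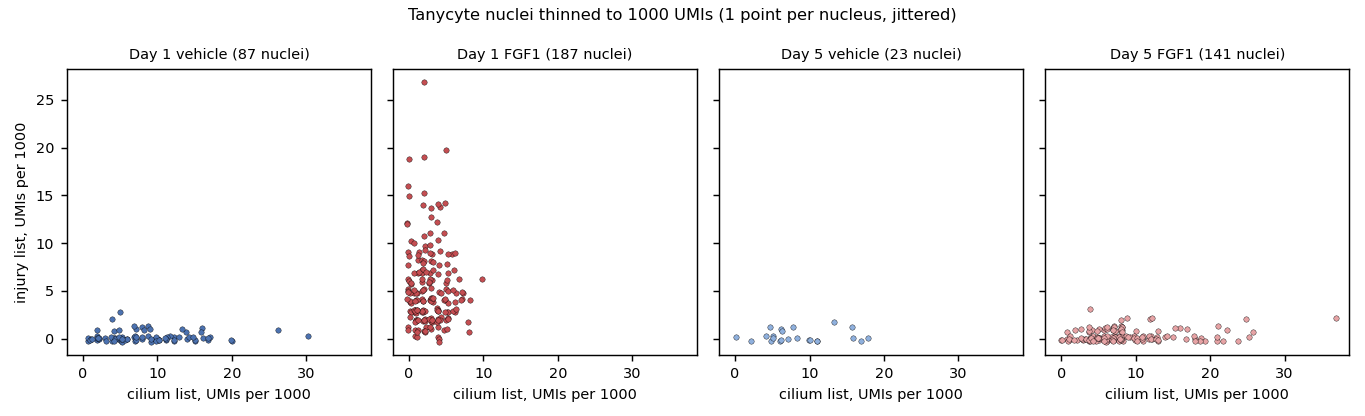
Each point is a tanycyte nucleus thinned to 1000 UMIs, with its UMIs of the cilium list (x axis) and of the injury list (y axis), slightly jittered, in 1 panel for each of the 4 groups. Day 1 FGF1 nuclei spread upward, 142 of 187 with 3 or more injury UMIs, and lie at lower cilium counts than vehicle nuclei, whereas 1 of 87 Day 1 vehicle nuclei and 1 of 141 Day 5 FGF1 nuclei reach 3 injury UMIs. Nuclei are pooled over mice and are not replicates, and FGF1 replicate 1 gave 119 of the 187.

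On Day 5, the Day 1 pattern was no longer seen at a called level, though a test of so few mice could miss it. The test compared 2 FGF1 mice with vehicle replicate 38 alone, since replicate 28 had fewer than 10 tanycyte nuclei, and so the lone vehicle mouse was assumed to vary like the FGF1 mice. Of 4483 genes, 2 were called (0.0446%), both lower after FGF1, 372 had an unadjusted p below 0.05, and DESeq2 called none. With vehicle replicate 28 included, none of 2437 genes was called and 207 had an unadjusted p below 0.05. The 2 called genes were Ces4a, a carboxylesterase, and Ptgds, a prostaglandin D synthase of glia and meninges. Ces4a was at 72.7 and 124 CPM in the FGF1 mice and at 92.2 and 606 CPM in vehicle replicates 28 and 38 (log2 fold change -2.73). Ptgds was at 189 and 181 CPM and at 231 and 895 CPM (-2.47). Both rest on the high value of vehicle replicate 38. That mouse also stood apart in its neuron nuclei: at 1000 UMIs, Ces4a was found in 71.4% of its tanycyte nuclei and 21.3% of its neuron nuclei, against 8.41 to 11.1% and 4.35 to 9.90% in the other Day 5 mice.

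Hmga2 had no UMI in any Day 5 mouse, Timp1 was at 7.27 and 7.09 CPM in the FGF1 mice and 0 in the vehicle mice, and the injury list summed to 320 and 330 CPM against 92.2 and 188 CPM. Vim was at 269 and 277 CPM in the FGF1 mice against 46.1 and 86.6 CPM, so the groups did not overlap, but it was not called (log2 fold change 1.46). Clu was at 1098 and 3081 CPM against 299.8 and 317 CPM (2.52, not called), above its Day 1 vehicle level in both FGF1 mice. Of the 190 genes higher on Day 1, 109 could be tested on Day 5, none was called (DESeq2 and the 4-mouse fit called no gene at all), and 71 had a positive log2 fold change, with a median of 0.29 against 0.04 for all tested genes. With all 4 mice 38 of 70 were positive and the median was 0.05.

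Nnat was at 2633 and 2266 CPM in the FGF1 mice and at 4981 and 3059 CPM in the vehicle mice, Dnah12 at 371 and 195 CPM against 46.1 and 173 CPM, and Tshr at 399.995 and 337 CPM against 115 and 390 CPM. The groups overlapped for Tshr, did not for Dnah12, and Nnat remained lower in both FGF1 mice without being called. Of the 133 genes lower on Day 1, 129 could be tested on Day 5, none was called, 73 had a positive log2 fold change and their median was 0.10. The cilium list summed to 11811 and 9169 CPM after FGF1 and to 5557 and 8483 CPM after vehicle, and the ependymal markers to 1433 and 851 against 300 and 678 CPM.

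The difference of the FGF1 effect between days was tested over all 10 mice, as Day 5 minus Day 1 on the log2 scale. It was called for 42 of 5067 genes (0.829%), 40 of them more positive on Day 5 (0.789%) and 2 more negative (0.0395%), and the median over all tested genes was 0.12. The 2 negative genes, both called higher on Day 1, were Lgals1 (-5.52 ± 1.26, FDR 0.0384) and Tubb2b, a neuronal and progenitor beta-tubulin (-3.73 ± 0.806, FDR 0.0275). Among the 40, the largest were 3300002A11Rik (7.74 ± 1.04), Ttc21a, a protein of transport within cilia (6.47), Dynlrb2 and the dynein chain Dnaic1 (both 6.45), Ddx60, an antiviral helicase (6.37), and A330033J07Rik (5.31). All of these but A330033J07Rik had 1 to 3 UMIs in the Day 1 FGF1 mice, so their sizes depend on the prior count of the fit. This test holds the Day 1 effects themselves, and the days lie in different batches of the authors, so day and batch cannot be told apart. The count fell to 8 without vehicle replicate 28 and to 9 without replicate 38, to 12 and 21 without FGF1 replicates 37 and 45, and to 16 without vehicle replicate 1.

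Sparcl1, a secreted matrix protein of astrocytes, was at 306, 398 and 202 CPM after FGF1 and at 837, 854 and 592 CPM after vehicle on Day 1, and at 1644 and 3542 CPM after FGF1 and at 553 and 606 CPM after vehicle on Day 5. It lay below vehicle on Day 1 and above it on Day 5 in every mouse, and the day difference was 3.18 ± 0.582 (FDR 0.00918), though the Day 5 difference by itself was not called. Slc39a12, a zinc transporter of astrocytes, went from 52.9, 92.9 and 94.9 against 209, 129 and 193 CPM on Day 1 to 655 and 542 against 161 and 130 CPM on Day 5 (day difference 2.98 ± 0.627, FDR 0.0260), and it too was not called on Day 5. Bcan, Pygb and Etnppl had day differences of 2.69, 2.94 and 4.39, and none of the 3 was called on Day 5. The astrocyte markers, with all 8 tested on Day 5 and none called, had a Day 5 median log2 fold change of 1.00 and summed to 3855 and 5474 CPM after FGF1 against 1706 and 2366 CPM after vehicle. On Day 1 the same sum was 984 to 1660 against 2035 to 3419 CPM. Oligodendrocyte markers summed to 902 and 1429 CPM after FGF1 and to 392 and 592 CPM after vehicle on Day 5. The part of astrocyte or oligodendrocyte RNA in these values was not tested.

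**Figure D4:**
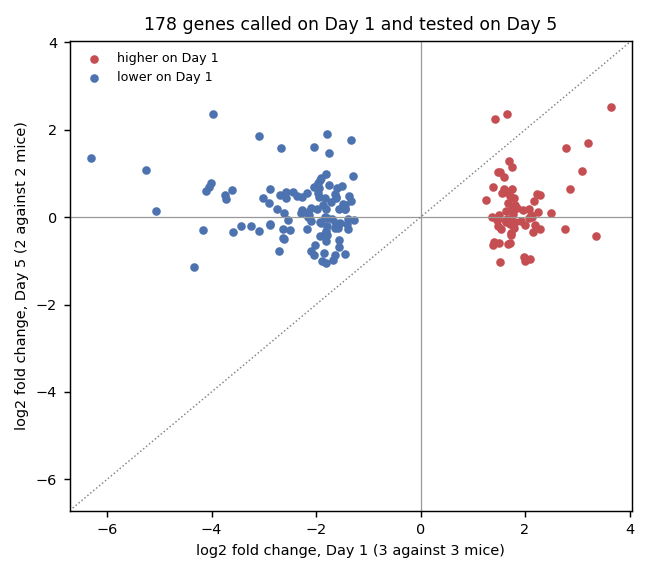
Log2 fold changes (FGF1 over vehicle) of 178 genes called on Day 1 that could also be tested with all 4 mice on Day 5, with Day 1 on the x axis, Day 5 on the y axis and a dotted line of equal change. Genes higher and lower on Day 1 lie apart on the x axis, as the choice of genes fixes, and scatter about 0 on the y axis, with 38 of 70 and 62 of 108 above 0.

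Tanycyte nuclei were set beside ependymal nuclei of the same Day 1 mice by testing the difference of the FGF1 effect, tanycyte minus ependymal. Of 2484 genes, 34 were called (1.37%), 9 with a more positive effect in tanycytes (0.362%) and 25 with a more negative one (1.01%). Tm4sf1, which rose in tanycyte nuclei, was at means of 870 and 444 CPM in ependymal nuclei of FGF1 and vehicle mice (difference 4.07 ± 0.538, FDR 0.00018), so ependymal nuclei already held it without FGF1. Scn7a, a sodium channel of tanycytes, was not called within tanycytes at 180 against 130 CPM and was at 4.96 against 109 CPM in ependymal nuclei (4.46 ± 0.998, FDR 0.0188). Its ependymal level after FGF1 was so low that the size of this difference depends on the prior count of the fit. Timp3, the centrosomal protein Cdk5rap2, the mitochondrial enzyme Idh2, the actin-binding protein Cald1, the GABA receptor subunit Gabrg3, the adaptor Apbb2 and Clu made up the rest of the 9.

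Of the 25 genes with a more negative effect in tanycytes, 16 were members of the cilium list, which had 64 members tested. Of all tested genes, 1.01% were called in this direction. In tanycyte nuclei alone 34 cilium members could be tested, so others passed the filter on low counts here through ependymal nuclei. The count of 16 is thus no independent support. Ak7, an axonemal adenylate kinase, was at means of 10.6 and 167 CPM in tanycyte nuclei and of 535 and 813 CPM in ependymal nuclei (difference -3.30 ± 0.603, FDR 0.00983), and Dnah6 was at 2.94 and 102 CPM and at 497 and 631 CPM (-3.90 ± 0.733, FDR 0.0103). Wdr63, a dynein assembly protein, had 18 UMIs in tanycyte nuclei of vehicle mice and none in those of FGF1 mice, which makes it at least 9.71-fold lower there, and was at 226 and 303 CPM in ependymal nuclei. When tanycyte nuclei with 3 or more ependymal marker UMIs were left out, 1 gene was called in place of 34, Dnah9 changed sign to 0.13, and the vehicle mice kept 38 of 87 nuclei. DESeq2 called 6, and leaving out 1 mouse gave 13 to 29.

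**Figure D5:**
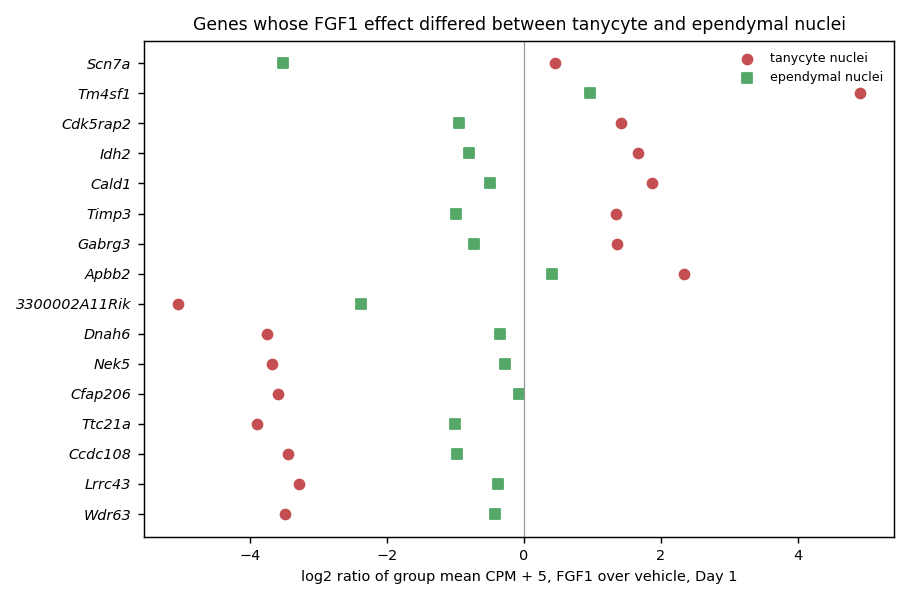
Day 1 log2 ratio of group means (CPM plus 5, FGF1 over vehicle, x axis) in tanycyte nuclei (circles) and ependymal nuclei (squares) for the 16 genes with the largest called differences of the FGF1 effect, 8 in each direction. Cilium genes such as Dnah6, Nek5 and Cfap206 lie below -3 in tanycyte nuclei and near 0 in ependymal nuclei, and Tm4sf1 lies near 5 in tanycyte nuclei and near 1 in ependymal nuclei.

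Against astrocyte nuclei of the same Day 1 mice, 15 of 4951 genes differed in their FGF1 effect (0.303%), 7 more positive in tanycytes (0.141%) and 8 more negative (0.162%). RLE scaling gave 6, of which 1 was more positive and 5 more negative. Cdh13, a cadherin anchored in the membrane, was at 1114, 1553 and 1056 CPM against 86.5, 108 and 219 CPM in tanycyte nuclei and at means of 403 and 170 CPM in astrocyte nuclei (difference 2.11 ± 0.453, FDR 0.0345). Megf11, an EGF repeat receptor, was at means of 206 and 18.2 CPM in tanycyte and 37.1 and 25.2 CPM in astrocyte nuclei (3.48 ± 0.778, FDR 0.0393), and Ndrg1, a stress-induced gene, at 295 and 45.0 CPM and at 29.0 and 22.3 CPM. In the other direction, Serpina3n, a protease inhibitor of reactive astrocytes, rose in tanycyte nuclei from 55.9 to 202 CPM and was at 23.9 CPM after vehicle and 849 CPM after FGF1 in astrocyte nuclei (-3.07 ± 0.607, FDR 0.0231). Nnat and 6330403K07Rik also had the more negative effect in tanycytes. No gene was called in this test without FGF1 replicate 1, without vehicle replicate 1 or without vehicle replicate 3, where 571, 469 and 563 genes, in that order, had an unadjusted p below 0.05, and DESeq2 called 11 with all mice.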

How the data were processed

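Nuclei of the hypothalamus were sequenced with droplet 3′ chemistry. The authors aligned reads with Cell Ranger 1.2 to GRCm38 (mm10), with introns included for nuclei, and annotated cell types after clustering with Seurat. The deposited values used here are raw UMI counts of 20668 genes in 24965 nuclei, with 701 to 3999 genes per nucleus, and the UMI totals of all 24965 nuclei equalled those in the deposited metadata. The authors ran a doublet caller, Scrublet, on whole cells but not on nuclei, and none was run here. Whether counting used strand is not given in the sources used here. Normalized values of nuclei and the whole-cell data were not used.

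Counts were summed per mouse over tanycyte nuclei and tested with edgeR 4.0.16 (filterByExpr, TMM scaling, robust quasi-likelihood F test) with Benjamini-Hochberg adjustment over all genes tested, with FDR below 0.05 called. Mice with fewer than 10 tanycyte nuclei stayed out of the tests within a day. The day difference used all 10 mice, and cell type differences used the mouse as a block. Standard errors were the absolute log2 fold change over the square root of F. CPM were scaled by TMM over all 10 mice. Genes with 1 to 3 UMIs in a group were given a ratio of pooled UMIs with an exact interval where a fold is printed for Day 1. Genes with no UMI in a group were given a bound against 3 counts over the group, and intervals and floors cover counting error only. Shares were compared by exact permutation tests in Python 3.11.15 (scipy 1.17.1). Per-nucleus shares used nuclei thinned to 1000 UMIs. The background was 3000 randomly drawn nuclei of neurons that the annotation leaves unmapped, without neurons of named types.

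Members and gene lists were chosen with earlier results of these data known. Named genes were cell type markers, called members and up to 4 uncalled members of 33 lists, the 10 largest called changes in each direction without overlap and with a mean of at least 50 CPM, and the 8 largest differences of effect in each direction. Fos was named beside Jun after its values were seen. Alternatives were DESeq2 1.42.0, RLE scaling, no filter on low counts, thinned nuclei, nuclei within the 5% limit, nuclei without ependymal marker UMIs, all mice in 1 fit, a replicate block and leaving out each mouse. The batch block, the Day 5 fits with all 4 mice and the shares without a mouse were added after seeing the data. The fits were tested on simulated data with 200 changed genes. Some genes are not reported here.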

Additional observations from a re-analysis of the deposited data

Results flagged for a closer look

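The FGF1 effect differed between days for 42 genes, by the test of the difference itself (Day 5 minus Day 1, log2 scale). The more negative ones were Lgals1 at -5.52 and Tubb2b at -3.73. The largest positive differences were of 3300002A11Rik at 7.74, Ttc21a at 6.47, Dynlrb2 and Dnaic1 at 6.45, Ddx60 at 6.37, A330033J07Rik at 5.31, 1700007G11Rik at 5.08 and Gm9925 at 5.06. Dnaic1, Dynlrb2 and Ttc21a belong to ciliary machinery. In the Day 1 FGF1 mice 3300002A11Rik, Ttc21a, Dynlrb2, Dnaic1, Ddx60 and Gm9925 had 1 to 3 UMIs, so their fitted differences depend on the prior count. Ttc21a overlaps Cx3cr1 and Gm9925 overlaps Mapk4, so their reads are uncertain.

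The effect differed between tanycyte and ependymal nuclei of Day 1 for 34 genes (tanycyte minus ependymal). It was more positive for Scn7a at 4.46, Tm4sf1 at 4.07, Cdk5rap2 at 2.55, Idh2 at 2.48, Cald1 at 2.37, Timp3 at 2.33, Gabrg3 at 2.08 and Apbb2 at 1.87. It was more negative for Wdr63 at -5.16, Lrrc43 at -4.26, Ccdc108 at -4.19, Ttc21a at -4.04, Cfap206 at -3.99, Nek5 at -3.91, Dnah6 at -3.90 and 3300002A11Rik at -3.78. Wdr63 had no UMI in tanycyte nuclei of the FGF1 mice, and Lrrc43, Ccdc108, Ttc21a, Cfap206, Dnah6 and 3300002A11Rik had 1 to 3, so these fitted values depend on the prior count and are no bounds. The value of Scn7a depends on it too, since its ependymal level after FGF1 was very low.

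Between tanycyte and astrocyte nuclei of Day 1 it differed for 15 genes. It was more positive in tanycytes for Megf11 at 3.48, Ndrg1 at 2.78, Slc44a1 at 2.68, Inpp5f at 2.49, Timp3 at 2.26, Cdh13 at 2.11 and Cadps at 2.04. It was more negative for Serpina3n at -3.07, Adgb at -2.63, 6330403K07Rik at -2.56, Ifitm3 at -2.26, Pbxip1 at -2.20, Cdc14a at -2.12, Prdx6 at -2.06 and Nnat at -1.93.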

How the results depend on the processing

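Of the Day 1 count of 323, other settings gave 563 without a filter on low counts, 44 after thinning nuclei to 1000 UMIs (508 genes tested), 42 without nuclei holding 3 or more ependymal marker UMIs (1322 tested), 508 with all 10 mice in 1 fit, 119 with the batch block, and 72 to 378 without 1 mouse. Replicate numbers did not pair the Day 1 mice (same-number correlations -0.0769, -0.264 and 0.179), and the replicate block gave 235. The Day 5 count of 2 became 0 by DESeq2 (55 genes at an unadjusted p below 0.05), 0 with all 10 mice (241), 28 without the filter, 17 without nuclei of 3 or more ependymal marker UMIs, 0 with the vehicle mouse of 9 nuclei (207), 0 with that mouse and the batch block (171), and 8, 4 and 23 when FGF1 replicate 37, FGF1 replicate 45 or vehicle replicate 38 was left out of those 4. The day difference of 42 became 120 without the filter and 8 to 46 without 1 mouse. Tanycyte against ependymal nuclei (34) gave 6 by DESeq2, 1 without tanycyte nuclei of 3 or more ependymal marker UMIs, where Dnah9 reversed to 0.13, and 13 to 29 without 1 mouse. Tanycyte against astrocyte nuclei (15, 46.7% of them more positive) gave 6 with RLE scaling (16.7%) and 0 to 8 without 1 mouse. The share difference in percentage points ran from -0.103 (without vehicle replicate 2; -0.0213 without FGF1 replicate 1) to 0.413 on Day 1 and from -0.675 (without vehicle replicate 28) to 1.41 on Day 5. Fewer genes were tested after thinning and after removal of nuclei, and the cause of the other changes was not tested. Over the named called genes of Day 1, 985 repeats kept direction and call and 235 kept direction but lost the call, among them 17 of 36 without nuclei of 3 or more ependymal marker UMIs, 32 of 91 with the batch block and 49 of 89 without vehicle replicate 1. The Day 5 vehicle mice had 9 and 14 tanycyte nuclei.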
